A study of Mus musculus with 8 samples.

Results

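The replication-dependent core histone genes of the mouse were followed on 8 one-colour microarrays of whole embryos. Members were all probes whose RefSeq accession belongs to a gene named H2ac, H2bc, H3c or H4c with a number, under the older names the Hist1, Hist2, Hist3 and Hist4 genes, with the linker histone H1 left out. The RefSeq table held 65 such genes. Of these, 42 had a probe on the array, among 20145 genes that the array's accessions named, and 4 of the 23 without a probe were pseudogenes. The 42 genes were carried by 46 probes, among 55681 probes in all.

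The embryos were of the CD-1 strain and of gestational day 9. One group of 4 samples had received 400 mg/kg hydroxyurea by intraperitoneal injection and the control group of 4 samples had received saline, and embryos were explanted 3 h later. Hydroxyurea inhibits ribonucleotide reductase, the enzyme that supplies deoxyribonucleotides for DNA synthesis. The labels speak of 4 independent experiments and do not say which samples share an experiment, a dam or a litter, or whether embryos were pooled, so p-values measure the spread between these samples.

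Core histones H2A, H2B, H3 and H4 form the protein spool of the nucleosome. Their replication-dependent genes lie in clusters, lack introns as a rule, and give transcripts that end in a stem-loop bound by the protein Slbp instead of a poly(A) tail. The transcripts are made in S phase, and in cultured cells they are known to decay when DNA synthesis is blocked. In an embryo at the start of organ formation, where most cells divide, they are abundant.

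The promoters are shown first because the families differ in sequence before any array value is used. RefSeq promoters (GRCm38.p6, 250 bases before to 50 after the start) were at hand for 56 of the member genes, 36 of them measured. The 120 bases before the start are printed for a gene of each family with a large fall in hydroxyurea embryos, and then for genes whose difference lay nearest 0 in their family, with H3c15 added because it resembles H3c14. Capitals mark CCAAT, the TATA sequence TATAAA, the octamer ATTTGCAT that H2B promoters are known for, and GGTCC, part of an element known from H4 promoters, each on either strand. The first 4 windows lie at chr13:23750968-23751087 on the plus strand (H2ac4), chr3:96269580-96269699 on the plus strand (H2bc18), chr3:96246565-96246684 on the plus strand (H3c14) and chr13:23698459-23698578 on the minus strand (H4c3). The others lie at chr3:96245377-96245496 on the plus strand (H2ac18), chr13:21787368-21787487 on the plus strand (H2bc22), chr13:23535298-23535417 on the plus strand (H3c8), chr3:96239128-96239247 on the minus strand (H3c15) and chr13:23530924-23531043 on the plus strand (H4c8).
H2ac4: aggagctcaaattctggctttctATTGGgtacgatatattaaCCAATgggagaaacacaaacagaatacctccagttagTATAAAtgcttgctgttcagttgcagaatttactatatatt
H2bc18: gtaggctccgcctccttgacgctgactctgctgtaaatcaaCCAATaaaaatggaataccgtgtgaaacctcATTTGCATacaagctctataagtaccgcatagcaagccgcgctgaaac
H3c14: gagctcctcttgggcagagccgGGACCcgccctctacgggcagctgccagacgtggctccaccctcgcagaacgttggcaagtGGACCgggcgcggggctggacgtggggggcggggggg
H4c3: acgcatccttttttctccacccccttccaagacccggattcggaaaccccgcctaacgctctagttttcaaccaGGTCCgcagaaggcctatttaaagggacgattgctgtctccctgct
H2ac18: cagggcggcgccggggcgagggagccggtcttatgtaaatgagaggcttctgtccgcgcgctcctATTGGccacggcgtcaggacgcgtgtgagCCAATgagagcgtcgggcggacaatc
H2bc22: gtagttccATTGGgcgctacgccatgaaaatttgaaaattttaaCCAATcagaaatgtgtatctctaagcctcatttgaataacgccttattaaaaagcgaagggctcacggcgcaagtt
H3c8: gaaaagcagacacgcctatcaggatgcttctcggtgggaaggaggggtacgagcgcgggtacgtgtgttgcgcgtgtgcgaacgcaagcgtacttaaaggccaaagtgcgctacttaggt
H3c15: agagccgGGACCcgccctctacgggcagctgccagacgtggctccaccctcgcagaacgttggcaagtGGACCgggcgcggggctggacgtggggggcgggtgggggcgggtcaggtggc
H4c8: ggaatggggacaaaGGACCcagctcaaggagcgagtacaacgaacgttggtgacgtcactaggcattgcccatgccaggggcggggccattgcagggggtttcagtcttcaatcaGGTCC

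CCAAT or its complement ATTGG was found in 44 of 44 promoters of the H2A, H2B and H3 families over their whole windows, in 3 of 12 H4 promoters, and in 37.9% of all 27025 promoters. The octamer was found in 13 of 34 H2A and H2B promoters, in 0 of 10 of H3 and 0 of 12 of H4, and in 1.75% of all promoters. The windows of neighbouring H2A and H2B genes can overlap, as those of H2ac12 and H2bc12 do. A motif in the overlap is counted for both genes, so these counts are not of separate motifs. GGTCC was found in 11 of 12 H4 promoters and in 5 of 18, 5 of 16 and 4 of 10 promoters of H2A, H2B and H3, beside 45.4% of all promoters. The TATA sequence was found in 31 of 56 core histone promoters, or 55.4%, and in 14.2% of all promoters. In the windows before the start, 14 genes held TATAAA on the coding strand, at a median of 32 bases before the start (range 10 to 94). CCAAT overlapped GGTCC or its complement in 2 promoters.

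**Figure D1:**
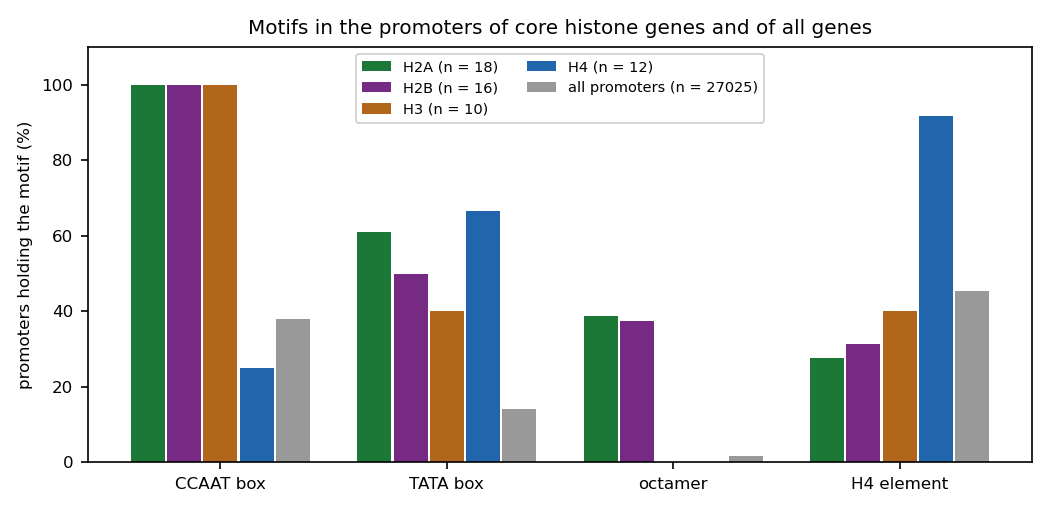
Share of promoters (percent, vertical axis) that hold each motif on either strand, for the 4 core histone families and for all 27025 promoters in grey; n is the number of promoters. CCAAT stands at 100% in H2A, H2B and H3 and in 3 of 12 promoters in H4, and the H4 element GGTCC at 91.7% in H4.

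Levels are given as log2 of the processed signal minus the 75th percentile of the array, so that 0 is the level of the probe at that percentile, and a level is compared only with levels of the same probe. Differences are hydroxyurea minus saline on that log2 scale, from limma fitted over all 30759 probes that were well above background on at least 4 of 8 arrays. A probe is called at an adjusted p under 0.05 (Benjamini-Hochberg over all those probes). Of the 46 member probes 45, for 41 genes, passed the filter on background, and 40 were well above background on all 8 arrays. The probe that did not pass was H2bc23, well above background on 1 of 8 arrays, with levels of -4.37, -6.37, -5.93 and -6.93 in hydroxyurea and -5.53, -6.66, -6.70 and -6.55 in saline embryos.

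The arrays had between 48.7% and 62.3% of their spots well above background and 0 saturated spots. Arrays 1 and 2 of either group shared slide 1, and arrays 3 and 4 shared slide 2. The 21 markers of tissues of the day 9 embryo were well above background on all 8 arrays, and 1 of them was called (Tbx5). The summed level of the 3 neural tube markers (scaled linear signal) was 5.36 to 7.74 in hydroxyurea and 8.32 to 8.65 in saline embryos. That of the 3 endothelial markers was 6.79 to 15.8 and 17.2 to 30.2. Among these, Kdr differed by -1.16, Cdh5 by -0.76 and Tek by -0.05. The sums of primitive red cell, heart, somite, endoderm and midline, and limb, arch and crest markers overlapped between groups. Placental markers (3 measured, Tpbpa well above background on no array) summed to 8.79 to 35.4 and 2.01 to 32.7, decidual markers (3, Prl3c1 on no array) to 1.81 to 67.6 and 1.85 to 2.67, yolk sac markers (4) to 9.79 to 52.5 and 11.4 to 147, and markers of the dam's blood cells (2) stayed at 0.046 or less. The part of these tissues in the histone values was not tested. In whole embryos, fewer cells of a type and less RNA per cell cannot be told apart.

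Core histone transcripts were lower in hydroxyurea embryos in all 4 families. Of the 45 measured probes 24, for 22 genes, were called lower, where 4.29% of all tested probes were called lower and 6.82% in either direction. None was called higher (limma, 1 at an unadjusted p under 0.05, H2ac6), against 2.52% of all probes, and 21 did not pass. In 29 probes every hydroxyurea array lay below every saline array, a pattern shown by 8.47% of all probes, and in none did every one lie above, as 7.37% of all probes did. The median difference was -1.18 over the 45 probes and 0.02 over all probes, with a range among members from -4.52 (H2bc18) to 1.28 (H2ac6, well above background on 1 of 4 saline arrays). The calls rest on both slides together. Within slide 1 and within slide 2 the members' medians were -0.92 and -1.48. The limma fit of a single slide called 0 members, with 26 and 27 lower at an unadjusted p under 0.05. The share of all probes at that mark within a slide is not reported here. Without any 1 array the count of lower calls ran from 17 to 27. The authors' deposited table of 1346 probes listed 18 member probes, and these 18 were among the 24 called here.

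Summarised by array, the median deviation of the 45 probes from their saline means was -1.15, -1.35, -0.76 and -1.80 in hydroxyurea 1 to 4 and -0.39, 0.19, 0.16 and 0.12 in saline 1 to 4. The groups did not overlap. Hydroxyurea 4 was lowest and hydroxyurea 3 nearest to saline, and saline 1 stood below the other saline arrays. Hydroxyurea 3 was also the array with the decidual sum of 67.6 and with 48.7% of its spots well above background. The part of either in its histone values was not tested.

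**Figure D2:**
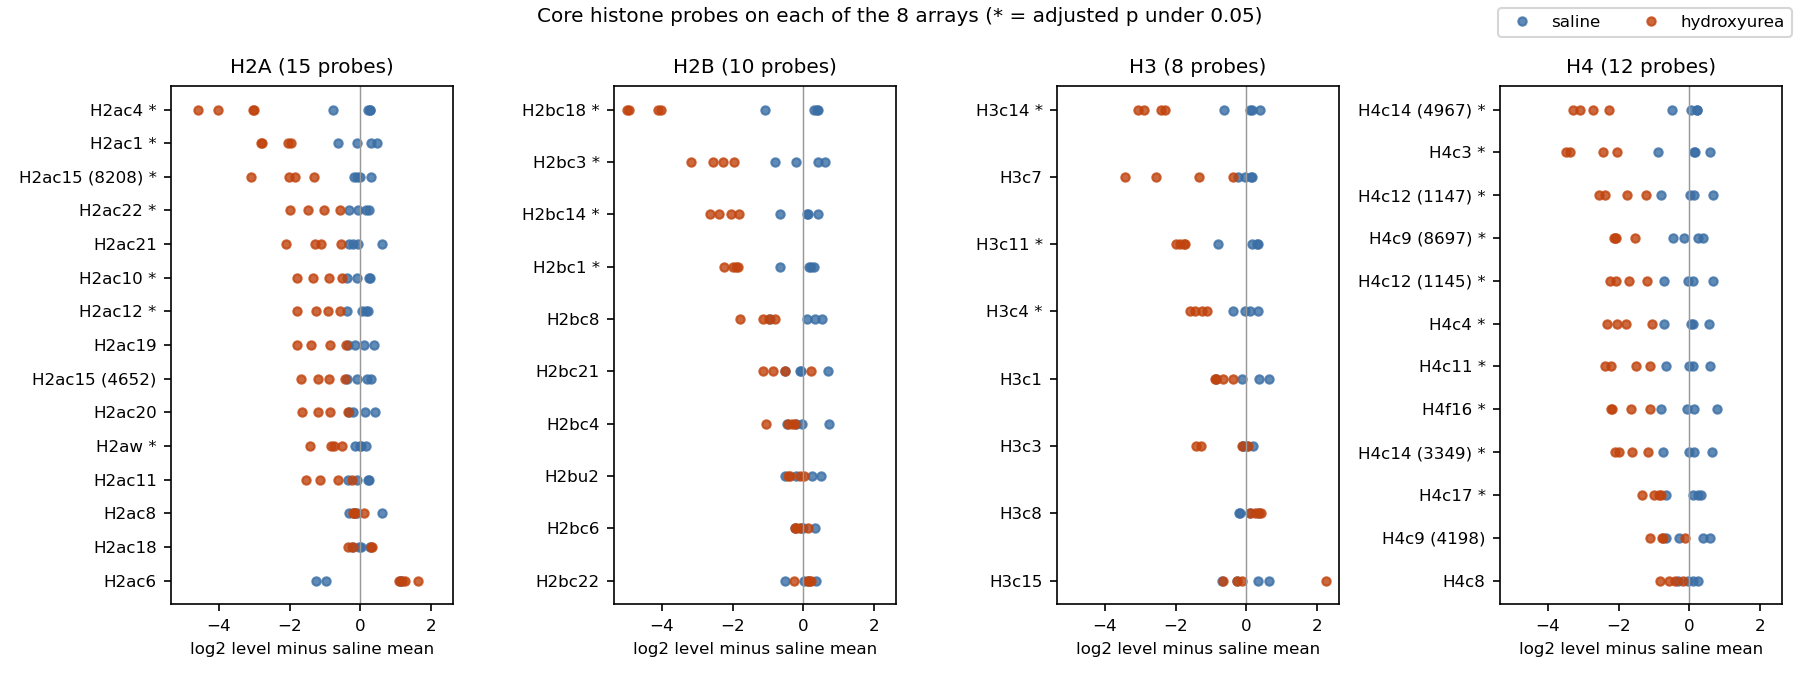
Each row is 1 measured core histone probe and each point 1 array, placed at its log2 level minus the mean of the 4 saline arrays (horizontal axis); blue is saline, orange hydroxyurea, an asterisk marks a called probe, and the last 4 digits of the probe name tell apart probes of 1 gene. The orange points lie to the left of the blue ones in 29 rows, furthest for H2bc18 and H2ac4, and lie together with them in rows such as H2bc22 and H2ac18.

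The H4 family was lower in the greatest share of its probes. Of 12 probes (9 genes) 10 were called lower, all 12 had a difference below 0, and the median was -1.80, beside 7 of 15 and -1.12 for H2A, 4 of 10 and -0.88 for H2B, and 3 of 8 and -1.03 for H3. Without hydroxyurea 1 the H4 count was 6. Most of the called H4 probes belong to a set, given below, that moved together from array to array, so the count may not stand for separate genes. Differences between families were not tested.

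H4c3 had levels of -0.56, 0.35, 0.77 and -0.69 in hydroxyurea embryos and 1.90, 3.39, 2.94 and 2.96 in saline embryos. It fell by 2.83 (SE 0.40, n = 4 per group, limma adjusted p = 0.0054). All 4 hydroxyurea arrays lay below the lowest saline array, which was saline 1.

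H4c4, H4c11 and H4c12 of the Hist1 cluster and H4f16 had differences within a narrow band, from -1.98 to -1.79. H4f16 is the only measured member on chromosome 6. H4c4 had levels of 4.53, 4.81, 5.52 and 4.26 against 5.87, 7.15, 6.63 and 6.69, and fell by 1.81 (SE 0.33). H4f16 had 3.18, 3.70, 4.24 and 3.14 against 4.55, 6.13, 5.28 and 5.48, and fell by 1.79 (SE 0.36). In each of them saline 1 was the lowest and saline 2 the highest saline array, and hydroxyurea 3 the highest hydroxyurea array. The 2 probes of H4c12 fell by 1.98 (SE 0.37) and 1.81 (SE 0.32), and H4c11 fell by 1.80 (SE 0.34). The adjusted p-values of these 5 probes in limma ran from 0.013 to 0.020. The calls of H4c11, H4f16 and the first H4c12 probe were lost without hydroxyurea 1, H4c11 and H4f16 also without hydroxyurea 4, and H4f16 without saline 3 or saline 4.

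H4c14, in the Hist2 cluster on chromosome 3, has a bright and a dim probe. The bright probe (A_55_P1973349) had levels of 5.50, 5.87, 6.31 and 5.40 in hydroxyurea and 6.73, 8.11, 7.49 and 7.62 in saline embryos, a fall of 1.71 (SE 0.31, limma adjusted p = 0.014). The dim one (A_55_P1974967) was well above background on 4 of 4 saline arrays, at -3.35, -2.81, -2.67 and -2.65, and on 0 of 4 hydroxyurea arrays. The limma fit of its measured signals gave a difference of -2.84 (adjusted p = 0.00063), with hydroxyurea levels that are uncertain. Its saline mean was 4.40-fold above a floor, the lowest signal well above background on each hydroxyurea array or the probe's own where higher. That floor is not a detection limit of this probe, so the size of the fall is uncertain. The call was lost with normexp background correction, where the limma difference was -0.65 (adjusted p = 0.068).

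H4c9 also has 2 probes, and they differed. A_55_P2158697 had levels of -0.60, 0.01, -0.55 and -0.55 against 1.07, 1.93, 1.77 and 1.38 and fell by 1.96 (SE 0.23, limma adjusted p = 0.0023), with no overlap of the groups. A_55_P2174198 had 1.13, 1.16, 1.76 and 0.77 against 1.59, 2.48, 2.28 and 1.22, a difference of -0.69 (SE 0.31, adjusted p = 0.21, limma), with overlap. H4c17 fell by 0.999 (SE 0.24, adjusted p = 0.042, limma), a call kept without saline 1 and lost without any other single array, and H4c8 had a difference of -0.50 (SE 0.19, adjusted p = 0.15), or -0.13 with normexp background correction.

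Among the H2A genes, whose products pair with H2B, H2ac4 and H2ac1 stood lowest. H2ac4 had levels of 3.60, 4.60, 4.62 and 3.06 in hydroxyurea embryos and 6.87, 7.86, 7.92 and 7.91 in saline embryos. It fell by 3.67 (SE 0.39, limma adjusted p = 0.0016), or 12.7-fold. The lowest saline array, saline 1, still lay above every hydroxyurea array by more than the hydroxyurea arrays differed among themselves.

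H2ac1, whose protein is a variant known mainly from testis, had levels of -2.46, -1.71, -1.62 and -2.43 against -0.30, 0.81, 0.23 and 0.63, a fall of 2.40 (SE 0.30, limma adjusted p = 0.0028). H2ac15 has 2 probes. A_52_P498208 had 5.32, 5.15, 5.85 and 4.07 against 6.97, 7.16, 7.47 and 7.06 and fell by 2.07 (SE 0.34, adjusted p = 0.0087 in limma). A_55_P2084652 had 8.42, 8.12, 8.90 and 7.64 against 8.94, 9.23, 9.63 and 9.50, a difference of -1.05 (SE 0.27) at an adjusted p of 0.053. Neither probe's groups overlapped.

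H2ac22 (-1.28), H2ac10 (-1.14), H2ac12 (-1.13) and H2aw (-0.88), the H2A gene of the Hist3 cluster on chromosome 11, were called at adjusted p-values from 0.033 to 0.043 in limma. H2ac10 may also stand for H2ac22 and H2ac12. It had levels of 8.72, 8.26, 9.08 and 7.83 against 9.24, 9.50, 9.88 and 9.85, hydroxyurea 3 lying just under saline 1. H2aw had 0.90, -0.01, 0.67 and 0.60 against 1.27, 1.42, 1.58 and 1.43, with hydroxyurea 1 nearest to saline. H2ac21 (-1.26), H2ac19 (-1.12) and H2ac20 (-1.01), of the Hist2 cluster, did not overlap between groups either and missed the threshold at adjusted p-values from 0.055 to 0.068 in limma, and with normexp background correction H2ac21 differed by -0.63. H2ac11 differed by -0.88 (SE 0.28, limma adjusted p = 0.10) with overlap, and it passed with quantile normalization, with normexp and without hydroxyurea 3. The count of called H2A probes moved accordingly, to 11 without hydroxyurea 3 and to 3 or 4 without any other single array except hydroxyurea 2, where it was 6. It was 11 with quantile normalization, normexp correction, the stricter background filter or a trend in the variance, 4 with median centring or with slide as a block, and 3 when no background filter was set.

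Differences near or above 0 were measured for H2ac18, H2ac8 and H2ac6. H2ac18, of the Hist2 cluster, had levels of -1.96, -1.81, -1.31 and -1.28 against -1.66, -1.59, -1.85 and -1.34, a difference of 0.02 (SE 0.20). H2ac8 differed by -0.12 (SE 0.22). H2ac8 and H2ac11 are named after their values were seen, as are H2bc4, H2bc6, H2bc22, H3c3 and H3c8. H2ac6 had -4.44, -4.62, -4.53 and -4.08 against -4.56, -6.97, -6.69 and -4.60, a difference of 1.28 (SE 0.55, adjusted p = 0.19), and was well above background on 3 hydroxyurea arrays and 1 saline array. With normexp background correction its difference was 0.25.

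The H2B family held the probe with the greatest fall of all members. H2bc18, of the Hist2 cluster, had levels of -1.12, -0.21, -0.30 and -1.16 in hydroxyurea embryos and 2.73, 4.19, 4.12 and 4.23 in saline embryos. It fell by 4.52 (SE 0.38, limma adjusted p = 0.00043), or 22.9-fold. Saline 1 was again the lowest saline array, and it lay 2.94 above the highest hydroxyurea array.

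H2bc14 had levels of 1.56, 2.15, 2.36 and 1.80 against 3.53, 4.29, 4.60 and 4.31 and fell by 2.22 (SE 0.27, limma adjusted p = 0.0024). H2bc1, whose protein is a testis variant like that of H2ac1, had 1.79, 1.69, 1.85 and 1.45 against 3.04, 3.98, 3.84 and 3.90 and fell by 1.99 (SE 0.23, adjusted p = 0.0020 in limma). H2bc3 had -4.29, -4.55, -3.96 and -5.19 against -2.82, -1.59, -1.39 and -2.21 and fell by 2.50 (SE 0.36, adjusted p = 0.0055, limma). It was well above background on 1 of 4 hydroxyurea arrays, and with normexp background correction its difference was -0.87. The groups of all 3 probes were apart.

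The other 6 measured H2B probes did not pass and overlapped between groups. H2bc8 had -4.01, -3.67, -3.83 and -4.64 against -2.54, -3.82, -2.32 and -2.76, a difference of -1.18 (SE 0.34, limma adjusted p = 0.074), and it passed without saline 2. With normexp background correction its difference was -0.34, and that of H2bc21 was -0.19. H2bc21 (-0.57), H2bc4 (-0.52), H2bu2 of the Hist3 cluster (-0.22), H2bc6 (-0.10) and H2bc22 (0.05) followed. H2bc22 had levels of -3.57, -4.07, -3.64 and -3.65 against -3.43, -3.64, -4.30 and -3.77, well above background on all 8 arrays.

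In the H3 family 3 of 8 probes were called. H3c14, of the Hist2 cluster, had levels of 1.39, 1.84, 1.97 and 1.19 against 3.62, 4.36, 4.66 and 4.42 and fell by 2.67 (SE 0.26, limma adjusted p = 0.0012). H3c11 had -1.10, -1.30, -1.05 and -1.19 against -0.12, 0.98, 0.84 and 0.99 and fell by 1.83 (SE 0.25, adjusted p = 0.0046 in limma). H3c4 had 5.32, 5.11, 5.47 and 4.98 against 6.18, 6.67, 6.88 and 6.54 and fell by 1.35 (SE 0.19, adjusted p = 0.0055, limma). The hydroxyurea arrays lay close together in H3c11 and H3c4 and below every saline array.

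H3c7 behaved otherwise. Its hydroxyurea arrays were spread, at -2.12, 0.93, -0.03 and -1.26, while the saline arrays lay at 1.07, 1.43, 1.47 and 1.27. The groups were apart and the difference was -1.93 (SE 0.56), with a limma adjusted p of 0.074. The probe passed without hydroxyurea 2, and also with median centring, normexp background correction or a trend in eBayes. H3c1 and H3c3 each had a difference of -0.70 (SE 0.31 and 0.33) with overlap, and H3c8 one of 0.28 (SE 0.17). H3c15 had -5.23, -4.84, -2.31 and -4.68 against -3.92, -4.82, -5.27 and -4.25, a difference of 0.30 (SE 0.60) in a probe well above background on 2 hydroxyurea and 3 saline arrays.

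**Figure D3:**
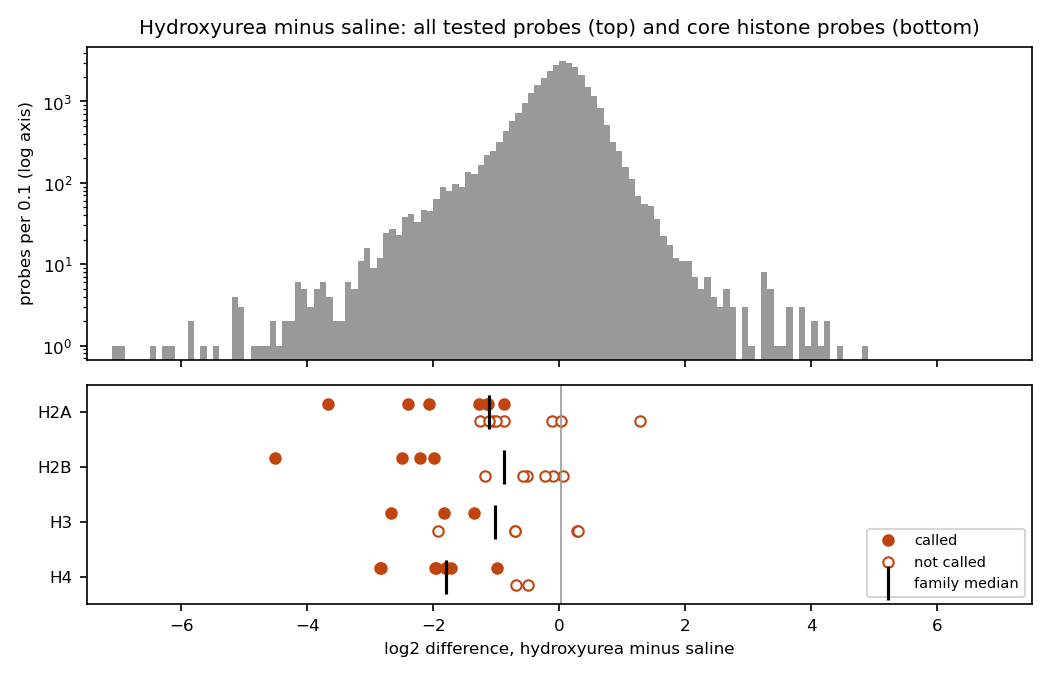
The upper panel is the distribution of log2 differences (hydroxyurea minus saline, horizontal axis) over all 30759 tested probes, with the number of probes on a log axis; the lower panel places the 45 core histone probes by family, filled where called, with a bar at each family median. The medians lie at -1.12, -0.88, -1.03 and -1.80 for H2A, H2B, H3 and H4, and the grey line marks the median of all probes at 0.02.

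By position, the large Hist1 cluster on chromosome 13 had 18 of 32 probes called lower with a median of -1.23, and the Hist2 cluster on chromosome 3 had 4 of 10 and -1.19. The small Hist3 cluster had 1 of 2, and the Hist4 gene was called. Over all tested probes 4.29% were called lower. Hist1 splits at gaps of over 100000 bases into 4 runs of measured genes. The run from H2bc14 to H4c17 had 8 of 10 probes called (median -1.80), and the run of H2ac12, H4c9 and H2ac11 had 2 of 4 (-1.01). The long run from H4c8 to H3c1 had 6 of 16 (-0.92), and the run of H2bc1 and H2ac1 had 2 of 2. The runs differ in the families they hold, and H4c12, H2ac15 and H4c9 count with 2 probes each. Differences between clusters or between runs were not tested. Called and uncalled genes were next to each other in the order of measured genes in the long run. In that order H2bc3 and H2ac4 (-2.50 and -3.67) are followed by H3c1 (-0.70). H4c3 (-2.83) comes between H2bc4 (-0.52) and H3c3 (-0.70). Genes that were not measured can lie between them on the chromosome.

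**Figure D4:**
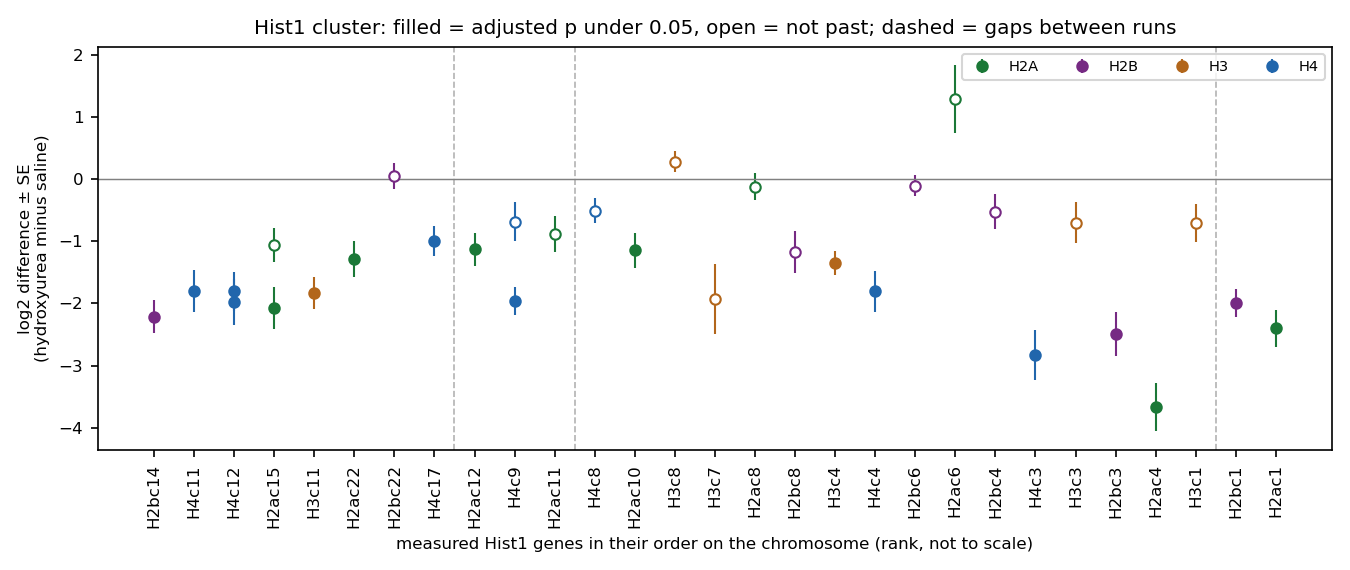
Log2 difference (hydroxyurea minus saline, vertical axis) with its SE for each measured Hist1 probe, in the order of the genes along chromosome 13 (rank, not to scale); colours are families, filled circles are called, and dashed lines are the gaps between runs. H2ac4, H4c3 and H2bc3 lie lowest, near genes such as H2bc4 and H3c1 whose circles are open.

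H2A and H2B genes often lie head to head and share the region between them. In 5 such neighbouring pairs both genes were measured. H2ac1 and H2bc1 were both called (-2.40 and -1.99). H2ac22 was called (-1.28) and its neighbour H2bc22 was not (0.05). In H2ac20 and H2bc21 (-1.01 and -0.57), H2ac8 and H2bc8 (-0.12 and -1.18) and H2ac6 and H2bc4 (1.28 and -0.52) neither probe was called.

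Some member promoters are nearly identical. The printed windows of H3c14 and H3c15, genes of a duplicated stretch of the Hist2 cluster, share 101 bases in a row, and those of H2ac18 and H2ac19 share 80. H3c14 fell by 2.67 while the dim probe of H3c15 differed by 0.30, and H2ac18 differed by 0.02 while H2ac19 differed by -1.12 without passing. The windows of H4c11 and H4c12 share 42 bases, and both genes fell. Differences within these pairs were not tested. Of all 1540 pairs of member promoters 5 shared 40 or more bases. By the probe with the highest signal, promoters with the octamer numbered 8 of 19 among called and 4 of 17 among uncalled genes, those with CCAAT 15 of 19 and 15 of 17, those with TATAAA 12 of 19 and 10 of 17, and those with GGTCC 9 of 19 and 5 of 17. A motif in overlapping windows is counted here for both genes. These shares were not tested.

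Some probes moved together from array to array after the group means were removed, as a description over 8 arrays that share slides and scaling. In 21 of 105 pairs of H2A probes and 21 of 66 pairs of H4 probes the correlation was above 0.95, in 0 of 45 pairs of H2B, 0 of 28 of H3 and 9 of 746 pairs across families. The H2A set held H2ac10, H2ac11, H2ac12, H2ac15 (A_55_P2084652), H2ac19, H2ac20 and H2ac22 and, with them, the dim H4c14 probe. The H4 set held H4c3, H4c4, H4c11, both H4c12 probes, H4f16 and the bright H4c14 probe and, with them, H2ac1. Genes of a family are known to resemble each other in coding sequence, so a probe may bind RNA of several genes, and the values of such probes are uncertain as values of single genes. Probe sequences were not used here, and binding to several genes was not tested.

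The linker histone H1 genes, whose replication-dependent members share the stem-loop and lie in the same cluster, were lower too. Of 7 measured H1 genes 6 were called lower, beside 4.29% of all probes, with a median difference of -2.30. H1f1 had levels of 0.06, -0.05, 0.32 and -0.61 against 1.91, 2.65, 3.18 and 2.98 and fell by 2.75 (SE 0.30). H1f4 fell by 2.66 (SE 0.30), H1f5 by 2.30 (SE 0.30) and H1f2 by 1.26 (SE 0.16), all at limma adjusted p-values between 0.0017 and 0.0036 and in every alternative that used both slides. H1f0 (-3.11, SE 0.72) and H1f10 (-0.93, SE 0.19), linker histones that are known to be made outside S phase, were called at adjusted p = 0.035 and 0.024 in limma. H1f0 was well above background on 2 of 4 hydroxyurea arrays, differed by -1.68 with normexp and lost its call without any single array except hydroxyurea 2. The call of H1f10 was lost without hydroxyurea 1, hydroxyurea 4, saline 1 or saline 3. H1f6, a testis form, did not pass (-1.19).

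The replacement histones, most of which are made throughout the cell cycle from polyadenylated transcripts, had a median of -0.32, with 2 of 9 measured genes called lower, beside 4.29% of all probes. H2aj fell by 1.18 (SE 0.28, limma adjusted p = 0.038) on its brightest probe and differed by 0.22 on its other. The brightest H2aj probe had levels of 8.61, 8.16, 8.97 and 7.66 against 9.20, 9.43, 9.73 and 9.76. Whether it binds RNA of core H2A genes was not tested. H3f3b had 3 probes past the filter. It fell by 0.82 (SE 0.17, limma adjusted p = 0.022) on the brightest and differed by -0.15 on another, and the remaining probe is not reported here. H2az1 (-0.15), H2ax (-0.40), H3f3a (0.02) and Cenpa (-0.32) were among the others. The calls of H2aj and H3f3b were lost with median centring and without most single arrays.

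Genes that process and degrade histone transcripts had a median of 0.18. Of 35 measured genes 2 were called higher, beside 2.52% of all probes, and none lower. At an unadjusted p under 0.05 in limma 2 were lower, and the share of all probes at that mark is not reported here. Slbp, the stem-loop binding protein, had levels of 3.70, 3.41, 3.32 and 3.30 in hydroxyurea embryos and 2.74, 2.30, 2.58 and 1.81 in saline embryos. It rose by 1.08 (SE 0.22, limma adjusted p = 0.021), and its other probe by 1.11 (adjusted p = 0.036), and the first call was lost without hydroxyurea 1, hydroxyurea 4 or saline 2. Upf1, an RNA helicase that takes part in the decay of histone transcripts, rose by 0.69 (SE 0.16, adjusted p = 0.034, limma), a call that was lost without any single array except hydroxyurea 2. Lsm10 (0.48), Lsm11 (-0.26), Zfp473 (0.39) and Casp8ap2 (0.33), which act in the making of histone transcripts, did not pass.

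Replication and S phase genes had a median of 0.31. Of 44 measured genes 4 were called higher, beside 2.52% of all probes, and none lower. At an unadjusted p under 0.05 in limma, 1 was lower and 18 were higher. The share of all probes at that unadjusted mark is not reported here. The called genes were Ccne1 (cyclin E), Tk1 (thymidine kinase), Pole2 (a DNA polymerase subunit) and Slbp, which is also counted in the list before. Ccne1 rose by 0.91 (SE 0.17, limma adjusted p = 0.015), Tk1 by 0.69 (SE 0.14) and Pole2 by 0.64 (SE 0.15). Ccne1 had levels of 6.20, 5.57, 5.97 and 5.82 against 4.91, 4.98, 5.15 and 4.88. The calls of Tk1 and Pole2 were lost without any single array except hydroxyurea 2. Pcna (0.35) and Rrm2 (0.39), the ribonucleotide reductase subunit, did not pass.

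Of 23 histone chaperones and carriers 1 was called lower, Anp32e (-0.69, SE 0.16), and 1 higher, Dnajc9 (0.78, SE 0.17), with a median of 0.06. These shares are near the 4.29% and 2.52% of all probes called lower and higher, and both calls were lost without any single array except hydroxyurea 2. Structural RNAs without a poly(A) tail were listed because the labels do not say how the labelled cDNA was primed. Of 15 listed, 5 were measured, with 1 called lower and a median of -0.29. Rmrp, the RNA of RNase MRP, had levels of -0.03, 0.40, -0.24 and -0.29 against 1.27, 2.36, 2.36 and 1.87 and fell by 2.004 (SE 0.27, limma adjusted p = 0.0045). Rpph1, the RNA of RNase P, differed by -1.02 (SE 0.27, adjusted p = 0.056), and the other 3 did not pass either. The part of priming in the histone values was not tested.

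**Figure D5:**
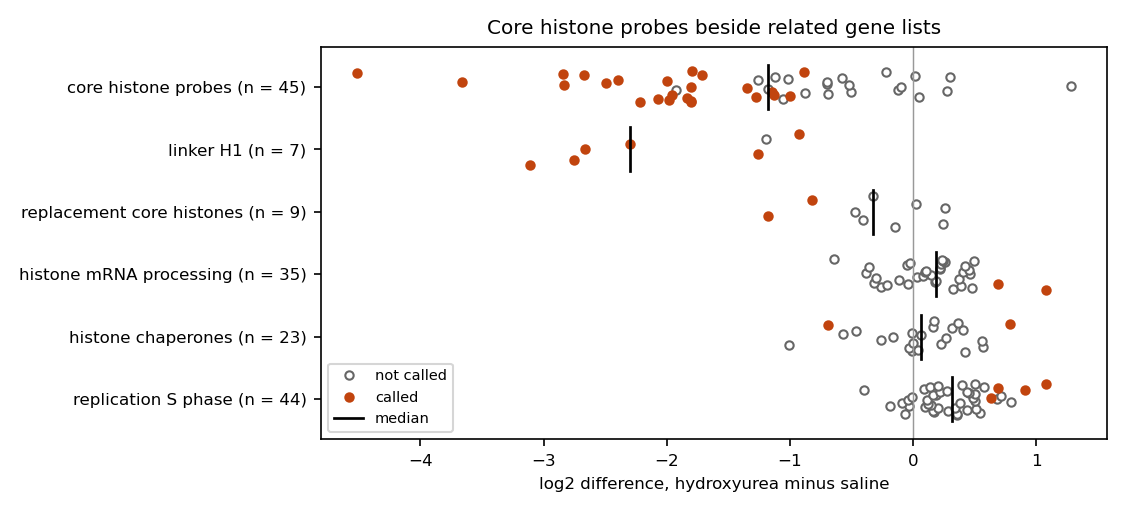
Each point is 1 core histone probe (top row) or 1 gene of a related list (its probe with the highest mean level), placed at its log2 difference, hydroxyurea minus saline; filled points are called and black bars are medians. The medians lie at -1.18 for core histone probes, -2.30 for linker H1, -0.32 for replacement histones, 0.18 for histone mRNA processing, 0.06 for chaperones and 0.31 for replication and S phase.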

How the data were processed

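The arrays measured total RNA of 8 whole-embryo samples, 4 hydroxyurea and 4 saline, grouped by the sample labels. Replicate numbers follow the order of the samples and are no label. Arrays of either group with the same number lie in the same row of a slide, and the labels do not say whether they share an experiment. The deposited scanner files hold Cy3 intensity values that were extracted with Agilent Feature Extraction 11.5.1.1, per the file headers, with the background subtracted and without scaling across arrays. The authors' deposited table of log2 values served only to count member probes, and how it was normalized and tested is not given in the sources used here.

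Spots marked as outliers (151 to 315 per array) and 3671 control spots were left out. Each probe's log2 processed signal was averaged over its spots, the 75th percentile of non-control probes on that array was subtracted, and limma 3.58.1 (R 4.3.3, two-sided, no covariate) was fitted, after a filter that kept probes well above background on at least 4 of 8 arrays, in at least 0.5 of their spots. The fit was tested on simulated data. The simulation took its spreads from the saline arrays alone, and its outcome is not reported here. The number of arrays limits the precision. Accessions were matched to symbols in RefSeq's GRCm38.p6 table, which gave symbols to 26582 probes, and the table was used only for names and for the order of genes and the gaps between them. Medians of lists take the probe with the highest mean level for each gene.

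The alternatives were median centring, quantile normalization, normexp with an offset of 50 on the median signal (the planned mean signal was not used here), other background filters, slide or slide and row as blocks, each slide alone, 1 probe per gene, a trend in eBayes, and leaving out each array. The members and lists were chosen with earlier results of these data known. Named with values were called members, the 2 uncalled probes with the largest differences in each family, genes with 2 probes, members of the small clusters, and the called genes of the related lists with Slbp. Other genes are named after their values were seen.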

Additional observations from a re-analysis of the deposited data

Results flagged for a closer look

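Of 132 groups of 4 arrays tested, 10 had a highest or lowest array whose gap to the next, divided by the group's range, was above the critical value of Dixon's test, and chance gives this in about 5% of groups. Saline 1 was the array in 6 of them. It lay lowest in saline for H3c11 (-0.12, the next array at 0.84), H2ac4 (6.87, next 7.86), H2bc1 (3.04, next 3.84) and H2bc18 (2.73, next 4.12). Its median deviation over all 45 core histone probes was -0.39 (next 0.12), and over the H3 probes -0.32 (next 0.08). Without saline 1 the 4 genes kept their calls.

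Hydroxyurea 2 lay apart in 3 groups: it was lowest for H2bc22 (-4.07, next -3.65) and Pole2 (2.05, next 2.29) and highest for the H4c9 probe A_55_P2158697 (0.013, next -0.55). Hydroxyurea 4 was lowest for Anp32e (1.81, next 2.14).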

How the results depend on the processing

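Of 24 core histone probes called lower, 15 kept their call in all 17 alternatives that used both slides and could be run for them. The 9 that lost it at least once were H4c11, the H4c12 probe A_55_P2091147, H4c14 (A_55_P1974967), H4c17, H4f16, H2ac10, H2ac12, H2ac22 and H2aw. The count of lower calls was 18 with no background filter, 20 with the slide as a block or with 1 probe per gene, 21 with median centring or slide and row as a block, 26 with the stricter filter, 27 with quantile normalization, 28 with normexp and 29 with a trend, and 0 in slide 1 alone and 0 in slide 2 alone, where 2 arrays stood against 2. The median difference of the members stayed between -1.48 and -0.92, and no alternative called a member higher. The median of all probes was 0.14 with median centring, against 0.02.

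Over all probes, 2097 were called as reported, 911 with no filter, 52 in slide 1 alone, 3 in slide 2 alone, and between 863 (without hydroxyurea 4) and 4861 (without hydroxyurea 2) without single arrays; the cause was not tested. No probe passed the limma test of a difference between slides in the effect of hydroxyurea (0 at an adjusted p under 0.05, 299 at an unadjusted p under 0.05, 0 of these core histone probes).

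Of 846 member values under alternatives 13 changed sign, all in probes that were not called. H2bc22 became -0.29 in slide 1, -0.00035 without hydroxyurea 1 and -0.12 without saline 3. H2ac8 became 0.0084 in slide 2 and 0.083 without saline 2, and H2bc6 0.017 with median centring and 0.0046 without saline 2. H3c15 became -0.66 in slide 1 and -0.35 without hydroxyurea 3. H2ac18 became -0.26 in slide 1, -0.075 without hydroxyurea 3, -0.062 without saline 3 and -0.087 without hydroxyurea 4. Leaving out single arrays moved H2bc22 between -0.12 and 0.17, H2ac8 between -0.23 and 0.083, H2bc6 between -0.18 and 0.0046, H3c15 between -0.35 and 0.62 and H2ac18 between -0.087 and 0.14. Dim probes, such as H3c15, H2ac6 and H2bc23, are limited by their signal over background.

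The labels pair no samples. Each row of a slide held 1 array of either group, and the fit with slide and row as a block is also a paired fit, by position on the slide, over arrays of the same number. It called 21 core histone probes lower, with a median difference of -1.18.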
